A study of Homo sapiens with 8 samples.

Results

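The 8 genes described here are Wnt ligands (WNT2, WNT5A, WNT5B), secreted Wnt antagonists (DKK1, DKK2, DKK3, SFRP1) and AXIN2, a target and feedback inhibitor of the pathway, taken by name from 54628 genes with deposited read counts. All 8 were found, and 7 of them passed the filter on low counts that 17155 genes passed; WNT2 did not. They were measured by sequencing polyadenylated RNA of IMR90, a human lung fibroblast line, made to express telomerase (hTERT) and carrying pINDUCER20 with an N-terminally Flag-tagged YAP5SA, a constitutively active form of the coactivator YAP that doxycycline switches on. All libraries carry both constructs. Each of 4 groups has 2 libraries. Senescent cells with doxycycline were taken 9 days after exposure to bleomycin, a drug that breaks DNA, at 10 ug/ml for 24 h, and received doxycycline at 1 ug/ml for the last 11 days. The 11 days reach back before the 9 days that followed bleomycin, so doxycycline was not started in cells already senescent. An effect of doxycycline in senescent cells is meant below in this sense. Senescent cells had the bleomycin alone. Proliferating cells with doxycycline had 11 days of the drug at 1 ug/ml, and proliferating cells had neither. Doxycycline was given only to cells with the transgene, so effects of the drug and of the switched-on transgene cannot be told apart. The cells are 1 engineered line, and no label says that replicates were separate cultures. The p-values therefore measure the spread between these libraries, which may be technical.

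Wnt ligands are secreted lipid-modified proteins that bind Frizzled receptors. With the co-receptors LRP5 and LRP6 they stabilise beta-catenin, which then works with TCF/LEF factors on target genes such as AXIN2, while WNT5A and WNT5B are best known for signalling that does not need beta-catenin. DKK1 binds LRP5 and LRP6 and keeps Wnt from using them, and SFRP1 binds Wnt proteins and Frizzled receptors outside the cell. In lung fibroblasts WNT5A is a well-known secreted product, and WNT5A, WNT5B and DKK1 have been described in work that links Wnt signalling with YAP.

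Libraries held 33627708 to 39692162 counts. Replicates of a group had Pearson r of 0.990 to 0.993 across genes in log2 CPM, where CPM gives a gene's counts for each 1e+06 in its library, with TMM-scaled library sizes. Their spread was unequal by chi-square per degree of freedom. It was 3.44 in proliferating cells and 17.8 in those with doxycycline, and 14.4 in senescent cells and 11.5 in those with doxycycline. The 4 groups share an estimate of the spread in the fit. YAP1 counts, which take in any transgene reads that align to the gene, stood at 291 and 287 CPM in senescent cells with doxycycline against 190 and 223 CPM in senescent cells (log2 0.48, adjusted p = 0.00140). They stood at 190 and 238 CPM in proliferating cells with doxycycline against 198 and 195 CPM in proliferating cells, which overlap and did not pass (log2 0.12, adjusted p = 0.431), so YAP1 counts do not separate the proliferating groups. ANKRD1, a target of YAP, stood at 822 and 851 CPM in senescent cells with doxycycline against 71.7 and 94.6 CPM in senescent cells, and at 266 and 277 CPM in proliferating cells with doxycycline against 3.08 and 3.68 CPM in proliferating cells. CCN1 and CCN2, also targets of YAP, differed less. Their means were 1063 and 1789 CPM in senescent cells with doxycycline against 653 and 836 CPM in senescent cells. In proliferating cells they were 737 and 823 CPM with doxycycline against 513 and 785 CPM without. MKI67, a proliferation marker, had means of 9.92 CPM in senescent cells with doxycycline and 29.3 CPM in senescent cells. It had 181 CPM in proliferating cells with doxycycline and 272 CPM in proliferating cells. In the same order the lamin gene LMNB1 had 4.87, 8.04, 77.2 and 126 CPM. CDKN1A, which encodes a cell-cycle inhibitor, had 1142, 1622, 378 and 324 CPM. MKI67 and LMNB1 were thus lower with doxycycline in both states. All 10 fibroblast markers had counts. Their sum was 12654 to 15109 CPM in senescent cells with doxycycline against 26177 to 27215 CPM in senescent cells, and 18714 to 18986 CPM in proliferating cells with doxycycline against 26826 to 27026 CPM in proliferating cells. COL1A1 and COL1A2 carry much of this sum, with means of 3765 and 2280 CPM in senescent cells with doxycycline against 11519 and 6733 CPM in senescent cells. Of the 10 markers doxycycline raised 2 and lowered 6 in senescent cells, or 80% against 46.3% of all tested genes. It raised 1 and lowered 7 in proliferating cells, or 80% against 23.0%. The 2 that rose in senescent cells were LUM, with a mean of 203 CPM against 55.5 CPM without doxycycline, and DCN, with 544 CPM against 458 CPM. The sum of 8 epithelial genes was 3.08 to 3.39 CPM in senescent cells with doxycycline against 0.896 to 1.03 CPM in senescent cells, and 1.47 to 1.65 CPM in proliferating cells with doxycycline against 0.802 to 0.976 CPM in proliferating cells. The sum of 6 endothelial genes was 97.1 to 107 CPM in senescent cells with doxycycline against 135 to 155 CPM in senescent cells, and 45.8 to 50.7 CPM in proliferating cells with doxycycline against 69.1 to 70.6 CPM in proliferating cells. TEK made up nearly all of it, while PECAM1 and CDH5 stayed at or under 0.112 CPM. The sum of 6 leukocyte genes was 64.0 to 64.8 CPM in senescent cells with doxycycline against 124 to 169 CPM in senescent cells, and 52.2 to 54.8 CPM in proliferating cells with doxycycline against 68.8 to 72.3 CPM in proliferating cells. CD68 made up nearly all of it, while PTPRC stayed at or under 0.252 CPM. Less RNA per cell and fewer cells of a kind cannot be told apart in such bulk libraries. The part that these marker differences have in the results below was not tested.

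The 250 bases before a RefSeq start (GRCh38.p14) are shown for DKK1 and WNT5A, whose windows were the only tabled ones free of annotated exons. Which start these cells use was not tested. The DKK1 window lies at chr10:52314031-52314280 on the plus strand. The WNT5A window lies at chr3:55481399-55481648 on the minus strand and precedes the downstream of the 2 WNT5A starts in the promoter table. Both are written 5′ to 3′ on the strand of the gene. Capitals mark matches on either strand to GGAATG, the letters bound by TEAD factors, to CTTTG followed by a pair of letters that are each A or T, which TCF/LEF factors bind, or to TGANTCA, which AP-1 binds.
DKK1: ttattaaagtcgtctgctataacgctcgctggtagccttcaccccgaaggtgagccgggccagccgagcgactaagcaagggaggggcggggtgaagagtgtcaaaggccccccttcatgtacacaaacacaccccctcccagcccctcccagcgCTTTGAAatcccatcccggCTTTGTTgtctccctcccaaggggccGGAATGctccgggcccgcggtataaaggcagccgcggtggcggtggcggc
WNT5A: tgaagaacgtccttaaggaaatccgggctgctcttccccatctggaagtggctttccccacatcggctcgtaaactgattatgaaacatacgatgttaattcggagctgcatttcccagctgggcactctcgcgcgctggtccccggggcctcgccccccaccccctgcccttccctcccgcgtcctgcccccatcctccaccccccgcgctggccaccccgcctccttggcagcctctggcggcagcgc
The DKK1 window holds the TEAD letters at bases -50 to -45 from the start and TCF/LEF matches at -95 to -89 and at -76 to -70, with no overlap between them. The WNT5A window holds no match. Of 35116 windows of this length in the table, 11.9% hold the TEAD letters, 12% a TCF/LEF match and 6.57% the AP-1 letters. The table had 6 windows for 4 of the 8 genes (WNT2, WNT5A, WNT5B and DKK1), and those of WNT2, WNT5B and the other tabled WNT5A start held no match. These 4 windows overlap annotated exons and are not printed. DKK2, DKK3, SFRP1 and AXIN2 have no entry. A match is a string of letters and not a measured binding site.

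WNT5A (chromosome 3, 55465715 to 55505263) was higher in bleomycin-treated cells and lower in cells with doxycycline, and WNT5B (chromosome 12, 1617056 to 1647212), a close relative, was lower after bleomycin and did not pass the test for doxycycline. WNT5A stood at 481 and 506 CPM in senescent cells with doxycycline against 725 and 778 CPM in senescent cells. It stood at 266 and 296 CPM in proliferating cells with doxycycline against 386 and 394 CPM in proliferating cells. No group overlapped its neighbour, and the order of the means was senescent (751 ± 37.4 CPM, SD, n = 2), senescent with doxycycline (493 ± 17.7), proliferating (390 ± 5.36) and proliferating with doxycycline (281 ± 21.8). With doxycycline WNT5A fell 1.52-fold in senescent cells (log2 -0.61, SE 0.09, adjusted p = 3.44e-05) and 1.39-fold in proliferating cells (log2 -0.47, SE 0.09, adjusted p = 0.000846) by edgeR's quasi-likelihood test with Benjamini-Hochberg adjustment, which gives every adjusted p below. The difference between these effects did not pass (log2 -0.13, 95% interval -0.39 to 0.12, adjusted p = 0.483). Bleomycin raised it 1.76-fold with doxycycline and 1.93-fold without. All 4 calls held in each of the 14 alternative analyses.

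WNT5B stood at 160 and 179 CPM in senescent cells with doxycycline against 173 and 172 CPM in senescent cells. It stood at 232 and 205 CPM in proliferating cells with doxycycline against 223 and 221 CPM in proliferating cells. In both states the libraries with doxycycline lie on either side of those without. The log2 change with doxycycline was -0.02 in senescent cells (95% interval -0.21 to 0.16, adjusted p = 0.836) and -0.02 in proliferating cells (95% interval -0.20 to 0.16, adjusted p = 0.903), and its sign turned with the scaling or the library left out. Bleomycin lowered WNT5B 1.29-fold both with doxycycline (adjusted p = 0.00171) and without it (adjusted p = 0.00170). The counts of WNT5A per count of WNT5B, which no scaling of libraries can alter, were 3.01 and 2.82 in senescent cells with doxycycline against 4.18 and 4.53 in senescent cells, and 1.14 and 1.44 in proliferating cells with doxycycline against 1.73 and 1.79 in proliferating cells. This ratio is uncorrected for gene length and is read only between groups, which did not overlap.

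WNT2 (chromosome 7, 117275451 to 117323058), a ligand of the developing lung, had 7 and 2 counts in senescent cells with doxycycline against 7 and 3 counts in senescent cells. It had 0 and 1 counts in proliferating cells with doxycycline against 7 and 8 counts in proliferating cells. It was therefore at the edge of detection everywhere. The count ratio in proliferating cells was 0.0717 with doxycycline over without (95% exact interval 0.00170 to 0.466, counting error only), on 1 count against 15. Without the filter on low counts, WNT2 passed in that comparison (log2 -3.51, adjusted p = 0.0420). In the other 4 its adjusted p was 0.102 to 0.903. Annotated non-coding genes cover 44.7% and 29% of its span, and with the strand setting not given its few reads are uncertain.

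**Figure D1:**
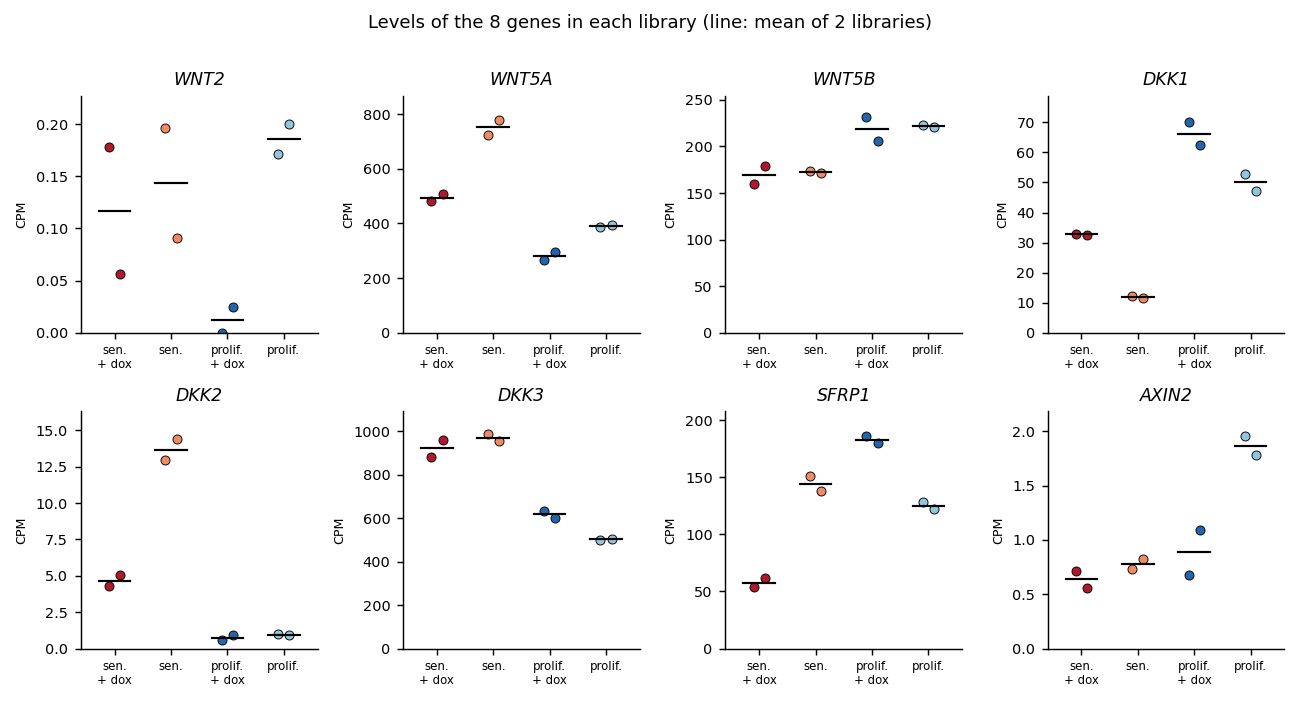
Levels of the 8 genes in CPM (vertical axes, linear from 0), with 1 point per library and a line at the mean of 2 libraries, for senescent (sen.) and proliferating (prolif.) cells with doxycycline (+ dox) and without. WNT5A is highest in senescent cells, DKK1 lowest there, and SFRP1 lowest in senescent cells with doxycycline at 54.0 and 61.4 CPM.

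The 3 Dickkopf genes did not move together. DKK1 (chromosome 10, 52314281 to 52317657) was lowered by bleomycin and raised by doxycycline. It stood at 32.9 and 32.7 CPM in senescent cells with doxycycline against 12.3 and 11.6 CPM in senescent cells. It stood at 70.1 and 62.4 CPM in proliferating cells with doxycycline against 52.9 and 47.3 CPM in proliferating cells. All 4 groups were separate from one another. Doxycycline raised DKK1 2.74-fold in senescent cells (log2 1.46, SE 0.10, adjusted p = 1.27e-08) and 1.32-fold in proliferating cells (log2 0.40, SE 0.09, adjusted p = 0.00363), and the effects differed (log2 1.05, SE 0.13, adjusted p = 6.45e-05). The call in proliferating cells was lost without replicate 2 of the proliferating cells (adjusted p = 0.0975). Bleomycin lowered DKK1 2.02-fold with doxycycline and 4.19-fold without (adjusted p = 6.23e-11). In senescent cells with doxycycline its level thus stayed below both proliferating groups.

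DKK2 (chromosome 4, 106921802 to 107036313), a relative that also binds LRP5 and LRP6, was low in proliferating cells and higher after bleomycin. It stood at 4.28 and 5.03 CPM (168 and 180 counts) in senescent cells with doxycycline against 12.9 and 14.4 CPM (462 and 474 counts) in senescent cells. It stood at 0.588 and 0.898 CPM (20 and 37 counts) in proliferating cells with doxycycline against 0.976 and 0.927 CPM (40 and 37 counts) in proliferating cells. Bleomycin raised it 14.3-fold without doxycycline (log2 3.84, SE 0.21, adjusted p = 3.01e-10) and 6.16-fold with it (log2 2.62, SE 0.22, adjusted p = 6.16e-08). Doxycycline lowered DKK2 2.94-fold in senescent cells (log2 -1.55, SE 0.18, adjusted p = 3.93e-06). In proliferating cells the change was log2 -0.34 (95% interval -0.86 to 0.19, adjusted p = 0.366). The effects of doxycycline differed between the states (log2 -1.22, SE 0.30, adjusted p = 0.0109), a call lost without replicate 2 of the proliferating cells with doxycycline (0.109) or replicate 1 of the senescent cells with doxycycline (0.0525).

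DKK3 (chromosome 11, 11963036 to 12009745), the divergent member of the family, stood at 883 and 961 CPM in senescent cells with doxycycline against 987 and 956 CPM in senescent cells. It stood at 634 and 601 CPM in proliferating cells with doxycycline against 502 and 504 CPM in proliferating cells. The senescent groups overlap, and both lie above both proliferating groups. Bleomycin raised DKK3 1.49-fold with doxycycline (adjusted p = 2.95e-05) and 1.93-fold without (adjusted p = 1.20e-07). With doxycycline it rose 1.23-fold in proliferating cells (log2 0.30, SE 0.08, adjusted p = 0.0190), and in senescent cells the change was log2 -0.08 (95% interval -0.25 to 0.10, adjusted p = 0.492; 0.09 with total counts only). The rise in proliferating cells was lost without replicate 1 (0.164) or 2 (0.154) of the proliferating cells or replicate 1 of those with doxycycline (0.0526). The difference between the states (log2 -0.37, adjusted p = 0.0391) was lost with DESeq2's size factors (0.0541) and with total counts only (0.208). It was also lost without replicate 1 (0.161) or 2 (0.155) of the proliferating cells, replicate 1 of the senescent cells (0.0808) or replicate 1 of the senescent cells with doxycycline (0.154). The counts of DKK1 per count of DKK3 were 0.0372 and 0.0340 in senescent cells with doxycycline against 0.0125 and 0.0121 in senescent cells, while the proliferating groups, at 0.111 and 0.104 with doxycycline and 0.105 and 0.0938 without, overlapped.

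SFRP1 (chromosome 8, 41261962 to 41309473), a secreted decoy for Wnt proteins, was raised by doxycycline in proliferating cells and lowered by it in senescent cells. It stood at 54.0 and 61.4 CPM in senescent cells with doxycycline against 151 and 138 CPM in senescent cells. It stood at 186 and 180 CPM in proliferating cells with doxycycline against 128 and 122 CPM in proliferating cells. Doxycycline lowered it 2.50-fold in senescent cells (log2 -1.32, SE 0.09, adjusted p = 7.93e-09) and raised it 1.46-fold in proliferating cells (log2 0.55, SE 0.08, adjusted p = 0.000171). The difference between these effects was the largest of the 7 tested genes (log2 -1.87, SE 0.12, adjusted p = 1.21e-07). Both effects and their difference held in the 14 alternatives. Bleomycin lowered SFRP1 3.17-fold with doxycycline (adjusted p = 2.37e-10). Without doxycycline it rose 1.15-fold (log2 0.21, SE 0.08, adjusted p = 0.0417). That last call was lost with total counts only (log2 0.03, adjusted p = 0.751) and with no filter (0.0827). It was also lost without replicate 1 (0.108) or 2 (0.257) of the proliferating cells or replicate 1 of the senescent cells (0.230).

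AXIN2 (chromosome 17, 65528563 to 65561648), the scaffold of the beta-catenin destruction complex that beta-catenin itself induces, was low in all libraries and highest in proliferating cells. It stood at 0.713 and 0.559 CPM (28 and 20 counts) in senescent cells with doxycycline against 0.728 and 0.821 CPM (26 and 27 counts) in senescent cells. It stood at 0.677 and 1.09 CPM (23 and 45 counts) in proliferating cells with doxycycline against 1.95 and 1.78 CPM (80 and 71 counts) in proliferating cells. The 2 proliferating libraries without doxycycline lie above the other 6. Bleomycin without doxycycline lowered AXIN2 2.41-fold (log2 -1.27, SE 0.31, adjusted p = 0.00230), which held in all alternatives. With doxycycline the bleomycin change was log2 -0.48 (95% interval -1.18 to 0.22, adjusted p = 0.232). Doxycycline in proliferating cells lowered it 2.09-fold (log2 -1.06, SE 0.30, adjusted p = 0.0181), a call lost with DESeq2 (0.0655), without replicate 1 (0.122) or 2 (0.0703) of the proliferating cells and without replicate 1 of those with doxycycline (0.1397). In senescent cells the change with doxycycline was log2 -0.28 (95% interval -1.0 to 0.44, adjusted p = 0.530).

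**Figure D2:**
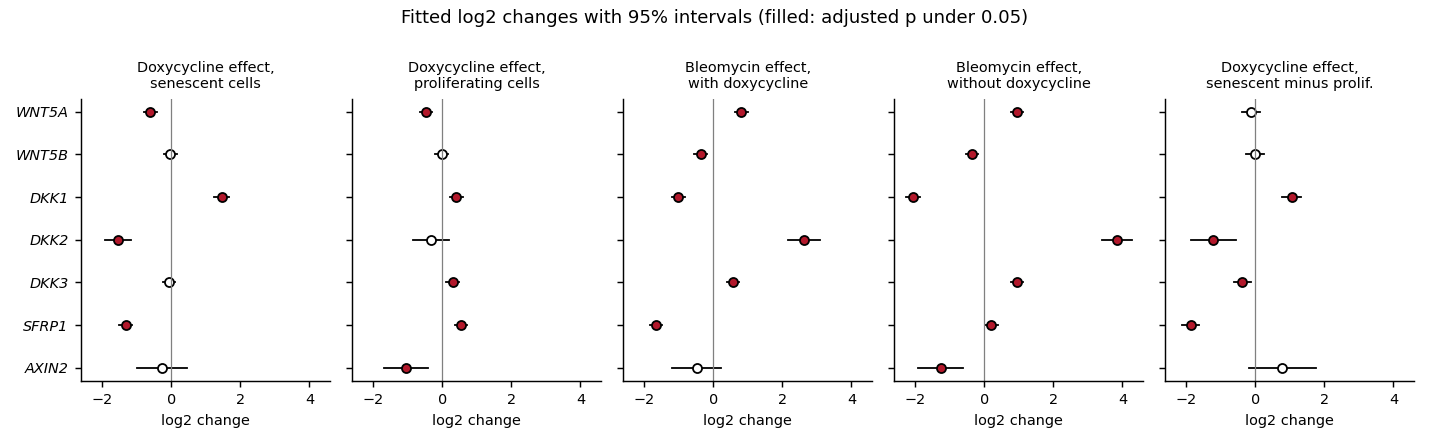
Fitted log2 changes (horizontal axis) of the 7 tested genes, with 95% intervals as bars. Filled points passed an adjusted p of 0.05 and open points did not. SFRP1 lies at -1.32 for doxycycline in senescent cells and at 0.55 for doxycycline in proliferating cells.

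The 8 genes were chosen with earlier results of these data known. Over these genes, doxycycline in senescent cells raised 1 and lowered 3 of the 7 tested. Of all tested genes 46.3% were called there, 22.6% higher and 23.8% lower. Doxycycline in proliferating cells raised 3 and lowered 2 of the 7, where 23.0% of all tested genes were called, 12.6% higher and 10.4% lower. Bleomycin with doxycycline raised 3 and lowered 3, where 55.5% were called, 26.8% higher and 28.7% lower. Bleomycin without doxycycline raised 4 and lowered 3, where 59.2% were called, 29.8% higher and 29.4% lower. The difference between the doxycycline effects passed for 1 gene upward and 3 downward, where 19.9% of all tested genes were called, 8.08% higher and 11.8% lower. These comparisons share groups of libraries. The senescent libraries without doxycycline enter both the rise of DKK2 after bleomycin and its fall with doxycycline.

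The wider pathway was read from 95 genes in 7 lists by role, which were also chosen with earlier results known. Of the 95 genes, 59 passed the filter. The other 36 genes were not tested, and 12 of 19 Wnt ligands and 9 of 15 secreted antagonists are among them. Of the 36, 33 had fewer than 10 counts in every library. Doxycycline in senescent cells raised 10 and lowered 19 of the 59, with a median log2 change of -0.12 against -0.0038 over all tested genes. With total counts as the only scaling, which moves the median of all genes by 0.17 in this comparison, 17 were higher and 16 lower. Doxycycline in proliferating cells raised 8 and lowered 15 (median -0.05 against 0.00). Without replicate 1 of the proliferating cells these were 7 and 6, and without replicate 2 they were 5 and 5. Bleomycin with doxycycline raised 20 and lowered 18 (median 0.02 against -0.01), and without doxycycline it raised 22 and lowered 22 (median -0.04 against 0.01). The difference between the doxycycline effects passed for 15 of the 59, or 25.4% against 19.9% of all tested genes. The shares of the 59 called were 49.2% for doxycycline in senescent cells (46.3% of all tested genes), 39% in proliferating cells (23.0%), 64.4% for bleomycin with doxycycline (55.5%) and 74.6% without (59.2%).

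**Figure D3:**
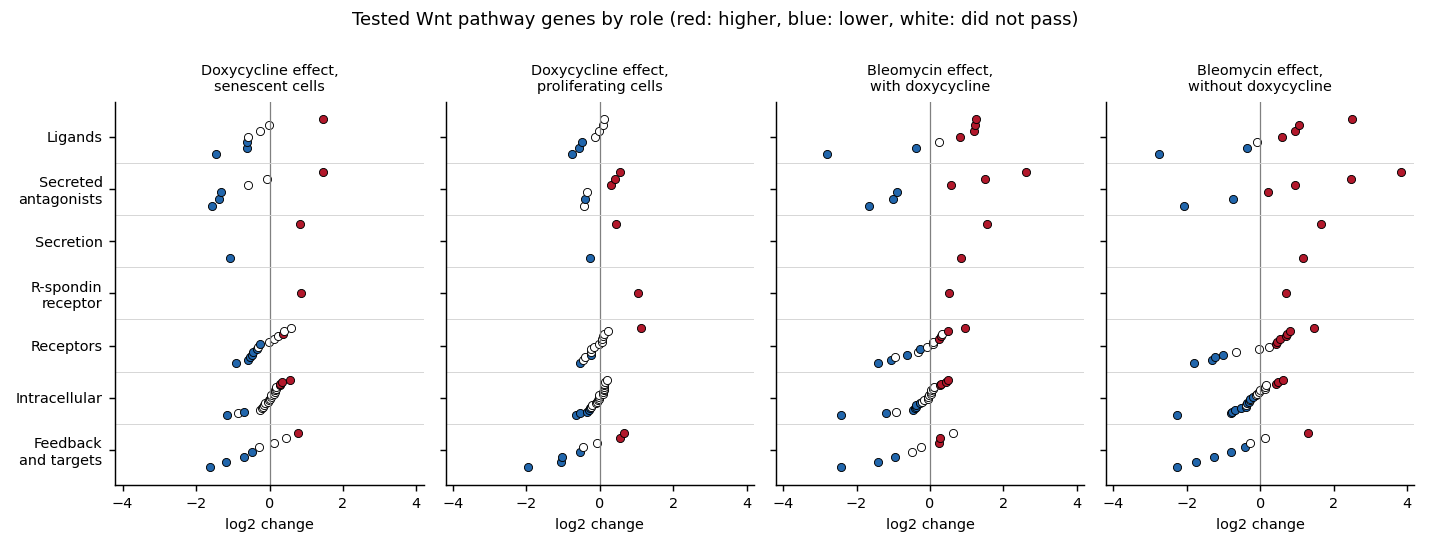
Log2 changes (horizontal axis) of the 59 tested pathway genes in rows by role, with 1 point per gene and red for higher, blue for lower and white for genes that did not pass. TCF7 belongs to 2 rows. In the ligand row, bleomycin without doxycycline has 4 red points and 2 blue ones of 7.

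Among ligands outside the 8 genes, WNT16, known from stress-induced senescence of fibroblasts, was higher after bleomycin and lower with doxycycline in senescent cells, as WNT5A was. It stood at 84.3 ± 1.74 CPM in senescent cells with doxycycline against 229.6 ± 3.89 CPM in senescent cells (SD, n = 2 each), and at 36.8 ± 2.80 CPM in proliferating cells with doxycycline against 40.3 ± 2.28 CPM in proliferating cells. Bleomycin raised it 5.69-fold without doxycycline (log2 2.51, adjusted p = 1.29e-12). Doxycycline lowered it 2.72-fold in senescent cells (log2 -1.44, adjusted p = 1.55e-09). WNT7B, a ligand of epithelia, went the other way after bleomycin, with 1.41 ± 0.0195 CPM in senescent cells with doxycycline, 2.17 ± 0.106 in senescent cells, 9.97 ± 1.11 in proliferating cells with doxycycline and 14.8 ± 0.0598 in proliferating cells. WNT10B rose 2.72-fold with doxycycline in senescent cells, to 3.35 ± 0.664 CPM against 1.23 ± 0.319 CPM in senescent cells.

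Of 15 secreted antagonists 6 were tested. IGFBP4, an IGF-binding protein that also blocks the binding of Wnt to its receptors, stood at 1491 ± 2.1 CPM in senescent cells with doxycycline against 3854 ± 260.4 CPM in senescent cells. It stood at 528.5 ± 66.8 CPM in proliferating cells with doxycycline against 695 ± 11.9 CPM in proliferating cells. Bleomycin raised it 5.54-fold without doxycycline and 2.82-fold with it. Doxycycline lowered IGFBP4 2.58-fold in senescent cells (adjusted p = 3.58e-08), and the difference between the states passed (log2 -0.97, adjusted p = 0.000231). Its 1.32-fold fall in proliferating cells (adjusted p = 0.00905) was lost without replicate 1 or 2 of the proliferating cells or replicate 2 of those with doxycycline, with an adjusted p of up to 0.0929. FRZB, another decoy of Wnt proteins, stayed low at 1.22 to 3.08 CPM in the group means and was lower after bleomycin (log2 -0.91 with doxycycline and -0.73 without). The call with doxycycline was lost without replicate 2 of either group (adjusted p up to 0.107), and the call without doxycycline with DESeq2 and without replicate 2 of the proliferating or replicate 1 of the senescent cells (up to 0.2995).

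The 2 genes that act on Wnt proteins before their release parted under doxycycline. PORCN, the acyltransferase that puts the lipid on Wnt proteins, stood at 58.9 ± 0.410 CPM in senescent cells with doxycycline against 33.1 ± 3.87 CPM in senescent cells, and at 20.03 ± 0.330 CPM in proliferating cells with doxycycline against 14.6 ± 1.04 CPM in proliferating cells. WLS, which carries Wnt proteins to the cell surface, stood at 249 ± 5.56 CPM in senescent cells with doxycycline against 527 ± 15.3 CPM in senescent cells, and at 139 ± 2.09 CPM in proliferating cells with doxycycline against 169 ± 5.63 CPM in proliferating cells. In senescent cells doxycycline raised PORCN 1.78-fold (adjusted p = 3.53e-06) and lowered WLS 2.12-fold (adjusted p = 2.48e-08). Bleomycin without doxycycline raised both, PORCN 2.26-fold and WLS 3.13-fold. GNG12-AS1 covers 78.0% of the span of WLS, so its reads are uncertain.

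Receptors went both ways. Of 14 tested, bleomycin without doxycycline raised 7 and lowered 4, or 78.6% against 59.2% of all tested genes. Doxycycline in senescent cells raised 1 and lowered 7, or 57.1% against 46.3%. The Frizzled genes FZD1, FZD2 and FZD7 fell 2.47-fold, 2.01-fold and 2.36-fold after bleomycin without doxycycline, while FZD8 rose 2.76-fold. The co-receptor gene LRP6 stood at 45.9 ± 0.930 CPM in senescent cells with doxycycline against 68.8 ± 7.11 CPM in senescent cells, and at 43.1 ± 2.89 CPM in proliferating cells with doxycycline against 41.3 ± 0.00806 CPM in proliferating cells. Its fall with doxycycline in senescent cells was 1.5-fold (adjusted p = 6.34e-05). LRP5 rose 2.18-fold with doxycycline in proliferating cells (adjusted p = 1.02e-05), with 11.2 ± 1.17 CPM against 5.15 ± 0.342 CPM. LGR4, a receptor for R-spondins, was the 1 tested gene of its list and rose with doxycycline in both states, 1.81-fold in senescent cells and 2.06-fold in proliferating cells. It stood at 39.2 ± 0.565 CPM in senescent cells with doxycycline against 21.7 ± 3.50 CPM in senescent cells, and at 27.1 ± 2.66 CPM in proliferating cells with doxycycline against 13.2 ± 0.541 CPM in proliferating cells. The receptor genes ROR1 and ROR2 had at most 4 and 2 counts in any library.

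Among 8 tested feedback and target genes, doxycycline lowered 4 and raised 1 in senescent cells, or 62.5% against 46.3% of all tested genes. It lowered 4 and raised 2 in proliferating cells, or 75% against 23.0%. APCDD1, a membrane-bound Wnt inhibitor and a target of beta-catenin, fell 3.06-fold with doxycycline in senescent cells and 3.89-fold in proliferating cells. It stood at 0.515 ± 0.135 CPM in senescent cells with doxycycline against 1.59 ± 0.0304 CPM in senescent cells, and at 1.38 ± 0.114 CPM in proliferating cells with doxycycline against 5.37 ± 0.0410 CPM in proliferating cells. TNFRSF19, a receptor gene that TCF/LEF factors can induce, fell 2.27-fold with doxycycline in senescent cells and 2.03-fold in proliferating cells. TCF7, which encodes a TCF factor, fell 4.84-fold after bleomycin without doxycycline. With doxycycline TCF7 changed by log2 -0.69 in senescent cells (-0.46 without replicate 1 of the senescent cells). In proliferating cells it changed by log2 -0.54 (-0.45 without replicate 2 of the proliferating cells). Each of these 2 calls was lost in 1 of 14 alternatives. Genes of this list went both ways, and whether any of these changes follows beta-catenin was not tested. MYC rose with doxycycline, 1.71-fold in senescent cells and 1.57-fold in proliferating cells. CCND1, which encodes cyclin D1, rose 1.48-fold in proliferating cells and fell 1.40-fold in senescent cells with doxycycline, and was raised 2.47-fold by bleomycin alone. Of 22 tested intracellular genes, doxycycline raised 4 and lowered 2 in senescent cells, or 27.3% against 46.3% of all tested genes. CTNNB1, the gene of beta-catenin, rose 1.27-fold there (adjusted p = 0.00276). CSNK1E had at most 4 counts in any library, and the readthrough gene TPTEP2-CSNK1E covers its whole span, so its count gives no level.

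**Figure D4:**
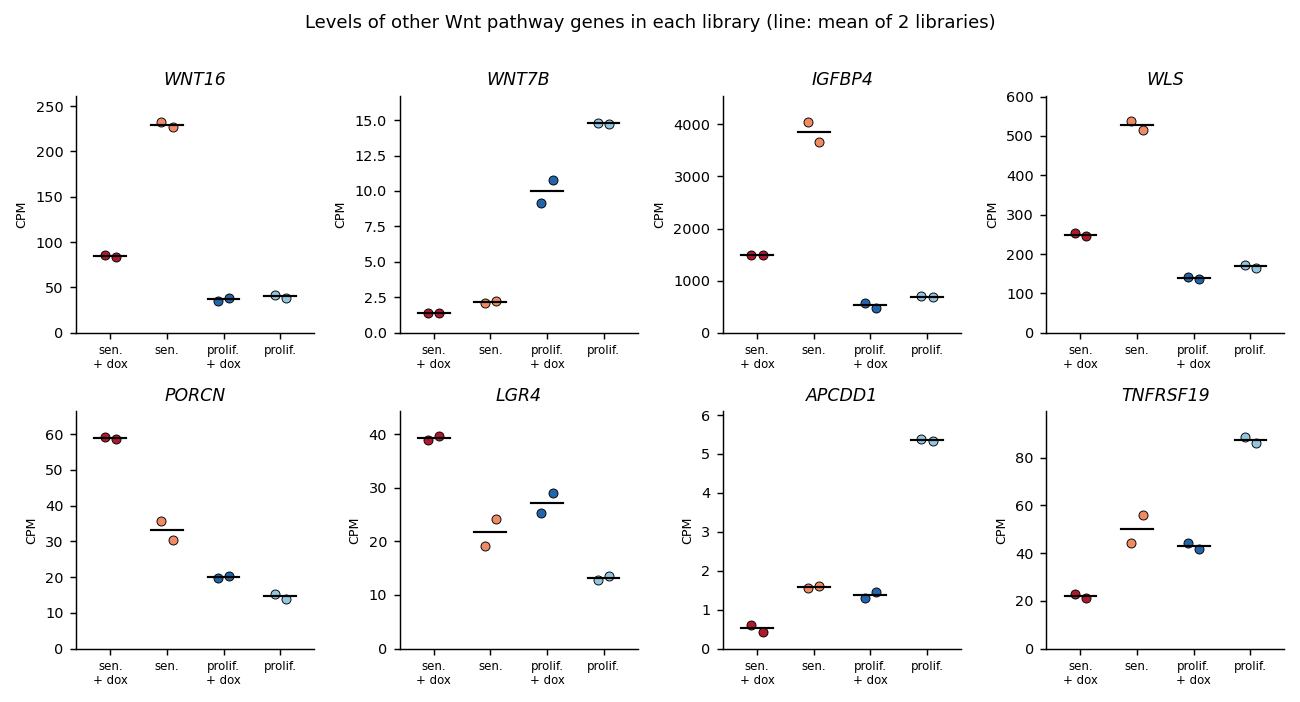
Levels in CPM (vertical axes, linear from 0) of 8 pathway genes outside the main set, with 1 point per library and a line at the mean of 2 libraries, for senescent (sen.) and proliferating (prolif.) cells with doxycycline (+ dox) and without. WNT16, IGFBP4 and WLS are highest in senescent cells, and PORCN and LGR4 in senescent cells with doxycycline.

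The pattern of each tested gene over the 8 libraries was set beside those of 9679 genes whose log2 CPM averaged 3 or more, by the root mean square difference of log2 CPM centred on the mean of the libraries. The nearest to WNT5A was F2R at 0.05, then BVES and KDM6B. Nearest to WNT5B was TMEM120A at 0.04 and nearest to DKK3 was KCTD20 at 0.05. DKK1 lay 0.14 from ODC1 and 0.16 from UCP2. DKK2 lay 0.25 from IFIT3, an interferon-induced gene, then 0.27 from BIRC3 and 0.28 from BMP2. The 3 nearest to SFRP1 were the mitochondrial COX2, COX1 and COX3 at 0.16 to 0.19, with Pearson r of 0.955 to 0.968. AXIN2 lay 0.18 from SLC9A3-AS1. These distances rest on 4 groups of 2 libraries.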

How the data were processed

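The deposited values are raw read counts per gene, in 8 columns of 1 library each. Per the labels' protocols, RNA came from acid phenol extraction and TruSeq Stranded mRNA libraries. Per the submitters' processing notes the tools were Trimmomatic 0.36, HISAT2 2.1.0 and featureCounts 1.6.3 with build hg38. The sources used here do not give their settings or annotation.

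In R 4.3.3 the tools were DESeq2 1.42.0, edgeR 4.0.16 and, for the voom alternative, limma 3.58.1. Matplotlib 3.10.9 drew the plots. The 17155 genes passing filterByExpr entered edgeR's robust quasi-likelihood model of 4 groups with TMM scaling and 4 residual degrees of freedom. Contrasts were tested two-sided at an adjusted p of 0.05 over all tested genes. Log2 CPM carries a prior count of 2. The SE belongs to the fitted log2 change. The fit was tested on simulated data with known changes in senescent cells with doxycycline, 50 genes per size. For doxycycline in senescent cells it called 46% of 1.5-fold and 96% of 4-fold rises, and 64% of 2-fold and 86% of 8-fold falls. It also called 14 unchanged genes. Each size had a single direction, so size and direction cannot be told apart in these shares. Only those genes changed in the simulation, while 46.3% of all tested genes were called in the data, so the shares need not carry over. A small change that did not pass may still have been missed. Replicate numbers follow the titles. The library descriptions carry other numbers, and libraries that share a title number do not all share a description number. No label pairs libraries across groups.

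The members and the 7 Wnt lists were chosen with earlier results of these data known. Named genes are the 8 members, called genes of the lists, and per member the 3 genes nearest in pattern. ROR1, ROR2 and CSNK1E were named after their counts were seen. Alternatives were DESeq2's size factors, total counts only, DESeq2, limma-voom, no filter, a replicate block and each library left out, where the lone library is assumed to vary like the other groups. Positions and overlaps are from RefSeq (GRCh38.p14).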

Additional observations from a re-analysis of the deposited data

Results flagged for a closer look

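The effect of doxycycline differed between senescent and proliferating cells for 4 of the 7 tested genes, by the interaction term of the fit. That is 57.1% against 19.9% of all tested genes, for genes chosen with earlier results of these data known. The log2 difference, senescent minus proliferating, was 1.05 for DKK1, -1.22 for DKK2, -0.37 for DKK3 and -1.87 for SFRP1. SFRP1 moved in opposite directions in the 2 states, with both effects past the threshold. DKK1 rose in both and by more in senescent cells. DKK2 passed in senescent cells alone, on 20 to 40 counts per proliferating library. The DKK3 difference was the smallest and the least stable of the 4, lost in 6 of 14 alternatives. The DKK2 difference was lost in 2 of them.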

How the results depend on the processing

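Of 490 recomputed member results 459 kept direction and call, 21 lost the call and 10 changed sign. Those that changed sign had not passed. WNT5B turned to 0.14 in senescent cells with total counts only. For its interaction the log2 value was 0.0078 with DESeq2's size factors, 0.0078 with DESeq2 and 0.18 with total counts only. Total counts only also turned DKK3 with doxycycline in senescent cells to 0.093 and the WNT5A interaction to 0.045. With single libraries left out, WNT5B ranged from -0.11 to 0.066 for doxycycline in proliferating cells, from -0.12 to 0.067 in senescent cells and from -0.099 to 0.087 for the interaction. The cause was not tested. With libraries left out, genes called for doxycycline in proliferating cells ranged from 2011 to 4155 and Wnt pathway genes from 10 to 23, the lowest without proliferating replicate 2. Interaction calls ranged from 1852 to 3903 genes. Group levels of the 8 genes moved by at most -2.19% with DESeq2's size factors and -8.92% with total counts only. Of 32 such levels, 3 moved by more than their SD with DESeq2's size factors and 11 with total counts only. That scaling moves the median of all genes by 0.17 for doxycycline in senescent cells, -0.17 for bleomycin without doxycycline and 0.18 for the interaction. The share of called genes that are higher is then 69.3% (48.7% with TMM), 37.1% (50.3%) and 70.5% (40.7%). Wnt pathway genes are then 21 higher and 25 lower for bleomycin without doxycycline (22 and 22 with TMM), and 9 and 8 for the interaction (4 and 11). Of 123 pathway calls outside the 8 genes, 89 held in every alternative and none changed sign.

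Libraries with the same title number did not deviate together, with correlations of -0.01 to 0.04 across genes. With that number as a replicate block 25, 30, 39, 44 and 19 Wnt pathway genes were called (doxycycline in proliferating and senescent cells, bleomycin with and without doxycycline, interaction), against 23, 29, 38, 44 and 15, and no member call changed.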
